A study of Mus musculus with 22 samples.

Results

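Serpins are a family of protease inhibitors that share one fold, and the 40 serpin genes described here are all those whose annotated single symbol on the array reads Serpin, a clade letter from a to i and a number, out of 18193 genes with a probe set of their own. Each gene was read from its probe set with the highest mean over all arrays. Clade A holds 14 of the 40 genes, clade B 18, clades F and I 2 each, and clades C, D, G and H 1 each; clade E genes are not analysed here. Values are given for the 19 genes that reached the median of all probe sets of the array in at least 1 of 12 groups, and 11 of these reached it in all 12. The other 21 genes peaked at intensities between 8.98 and 106.5. They are Serpina1c, Serpina1f, Serpina3a, Serpina4-ps1, Serpina5, Serpina6, Serpina7, Serpina9, Serpina11, Serpinb3a, Serpinb5, Serpinb6c, Serpinb7, Serpinb9c, Serpinb9d, Serpinb9g, Serpinb11, Serpinb12, Serpinc1, Serpind1 and Serpinf2. Just inside the limit stood Serpinb1b, Serpina10 and Serpina12, at 0.51, 0.63 and 0.98 above the array median on the log2 scale in their highest group, and just outside stood Serpinb6c, Serpind1 and Serpina1c, at -0.18, -0.40 and -0.55.

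RNA was measured on 22 Affymetrix Mouse Genome 430 2.0 arrays of male C57BL/6 mice and their cells. The 14 cell arrays hold cultured suprarenal aortic smooth muscle cells from mice that lack tenascin C (Tnc knockout, KO), so every cell group carries the deletion. The cells had exogenous tenascin C protein (TNC, 10 µg/mL) plus tumour necrosis factor alpha (TNF, 10 ng/mL) in 4 arrays, TNC alone in 4, TNF alone in 3 and neither factor in 3. The 8 aortic arrays each hold RNA pooled over mice of 1 genotype (KO or wild type, WT), segment (infrarenal or suprarenal) and treatment. Treated mice had 0.5 M CaCl2 laid on the infrarenal aorta and angiotensin II infused at 1 µg/min/kg for 1 week (CaAngII; 8 mice a pool), and the other mice had no treatment (5 mice a pool). The design text counts 3 independent cultures without TNC and 4 with it, and gives no word on whether the arms with and without TNF share cultures.

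As background, an inhibitory serpin offers a protease a loop that resembles its substrate and, once cut, traps the enzyme in a covalent complex, so each molecule is used up. Secreted serpins of clades A, C, D, E, F and G restrain proteases of blood and tissue such as neutrophil elastase, thrombin, plasmin and C1, while clade B serpins stay largely inside cells and guard them against their own granule and lysosomal enzymes. Some members inhibit nothing: Serpinh1 is a collagen chaperone of the endoplasmic reticulum. In the aortic wall, proteolysis of elastin and collagen and its restraint by inhibitors are long-standing themes of aneurysm and dissection research.

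Intensities are the authors' linear values, scaled alike on every array, and the array median was 51.02 to 64.61 in cells and 119.3 to 134.5 in pools. Tnc itself read 257.5 to 488.7 in the 4 KO pools, against 1805 to 2699 in the 4 WT pools, and 66.26 to 144.2 in the cells. The smooth muscle markers Acta2 and Tagln were bright in cells, while Myh11 averaged 33.91, 53.29 and 70.43 with both factors, TNC and TNF, against 340.8 with neither. The summed level of 10 smooth muscle markers was 27849 with both factors, 41703 with TNC and 27053 with TNF, against 55427 with neither. The summed level of 7 fibroblast markers ran the other way, at 29516, 25846 and 24384 against 10912, mostly through Dcn and Pdgfra. Not every member rose. Col14a1 read 1098, 1413 and 1639 against 1410, and Pi16 was lower, at 2.80, 19.3 and 22.7 against 38.9. Pi16 and Clec3b stayed under the array median. The part of either shift in the serpin changes was not tested. Of 8 endothelial markers, 7 were at or above the array median in every cell group, with Emcn at 9795 to 12664 and Pecam1 at 3216 to 4618. Kdr stood close to the median, at 65.1 to 71.6, and Cldn5 lay under it, at 13.1 to 25.3. The cultures so carried transcripts of most, but not all, of these endothelial genes. Of 10 macrophage markers 2 to 4 reached the array median, with Lyz2 at 387.8 to 693.1, Csf1r at 191.4 to 237.2, and Cd163 and Itgam at 1.52 to 15.9, and no T or B cell marker did. All pools carried fat markers (summed level 44899 to 94807 over 7 genes). In bulk samples, fewer cells of a type and less RNA per cell cannot be told apart.

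**Figure D1:**
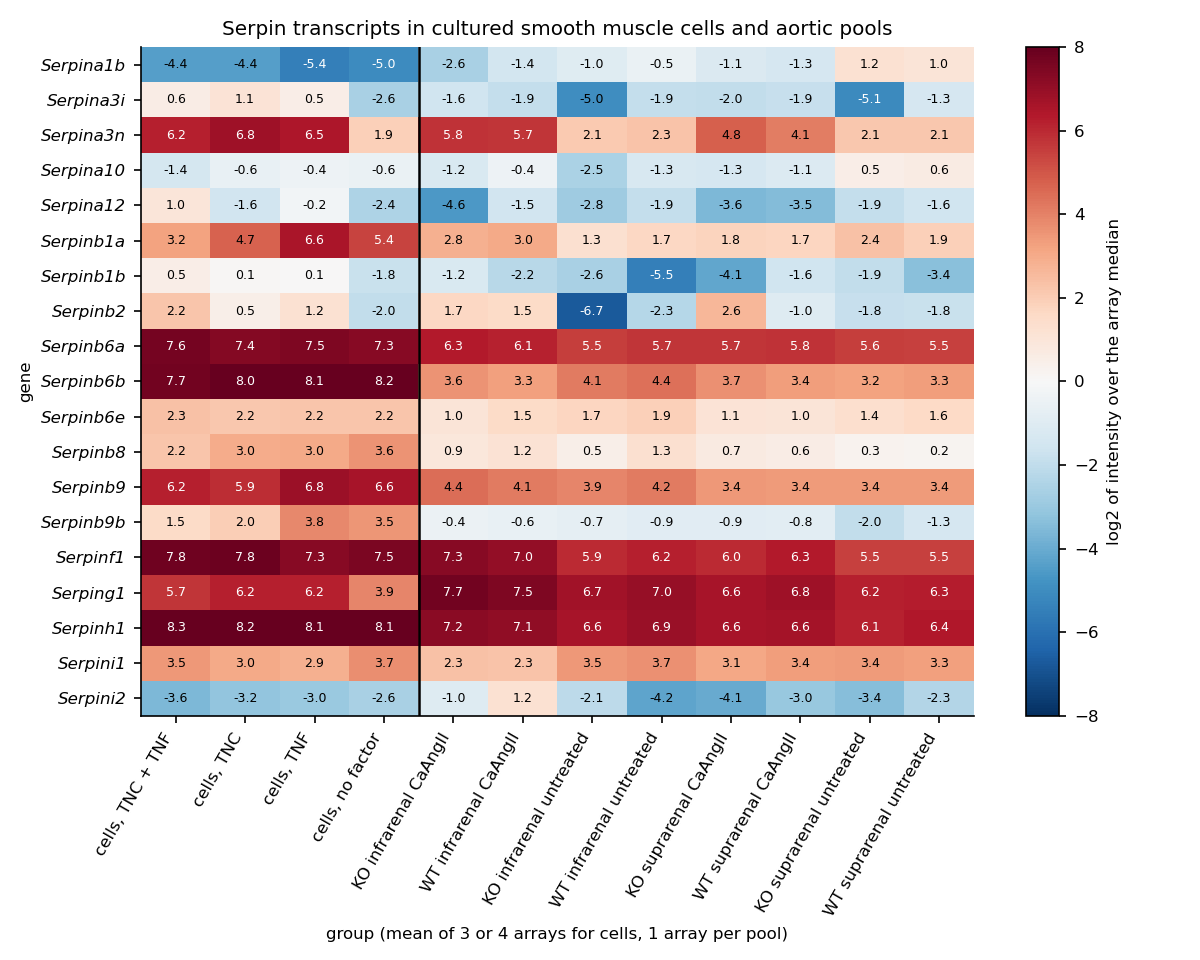
Levels of the 19 described serpin genes (rows) in the 4 cell groups and the 8 aortic pools (columns), as log2 of the intensity over the array median; cell groups are means of 3 or 4 arrays, pools are 1 array each. Colours should be read along a row, since probe sets differ in brightness; Serpina3n lies at 6.20 to 6.81 in cells with a factor, against 1.94 in cells with none, and Serpinh1 lies at 6.13 to 8.28 in all columns.

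The cell arrays asked what TNF does to KO cells with and without TNC, and what TNC does with and without TNF. The 4 groups were fitted together in limma over 15636 genes, 27 of them serpins, and calls were made at an adjusted p (Benjamini-Hochberg over all genes) under 0.05. Without TNC, TNF changed 9 of 27 serpins, 6 upward and 3 downward, where 34.1% of all genes were called, 14.1% upward and 20% downward. With TNC present, TNF changed 10 serpins, 4 upward and 6 downward, where 21.8% of all genes were called, 9.43% upward and 12.3% downward. TNC changed 11 serpins in cells without TNF, 5 upward and 6 downward, where 31.5% of all genes were called, 16% upward and 15.5% downward. In cells with TNF it changed 10, 2 upward and 8 downward, where 28% of all genes were called, 16.1% upward and 11.8% downward. The TNF effect differed with TNC for 7 serpins, 1 toward a higher and 6 toward a lower effect with TNC, where 18.5% of all genes were called, 9.63% and 8.9% in those directions. In that order the serpin shares were 33.3%, 37%, 40.7%, 37% and 25.9%. The median serpin change ranged from -0.20 to 0.12 over the 5 contrasts on the log2 scale, against -0.06 to 0.04 for all genes. Contrasts that share arrays are given side by side, without a correlation.

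Serpina3n, a secreted clade A serpin related to human alpha-1-antichymotrypsin and known in mice as an acute phase protein that blocks granzyme B, changed most. Its intensity was 4066, 4374, 3871 and 3797 with TNC and TNF, 6586, 6269, 6401 and 5968 with TNC, 5401, 5047 and 5389 with TNF, and 260.9, 269.6 and 201.1 with neither factor. The arrays with neither factor stood far below the rest, the arrays with TNC alone stood highest, and no groups overlapped. Serpina3n rose with TNF alone by 4.45 on the log2 scale (SE 0.10, adjusted p = 7.94e-11) and with TNC alone by 4.70 (SE 0.09, adjusted p = 5.26e-11). With TNC already present, TNF lowered it (log2 -0.65, SE 0.09, adjusted p = 0.000298). The difference between the TNF effects was -5.10 (SE 0.13, adjusted p = 1.28e-09). TNC on top of TNF gave -0.39 (SE 0.09, adjusted p = 0.00944), a call that was lost when each array was centred on its median (adjusted p = 0.0735).

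Serpina3i, a dimmer neighbour of the same mouse gene cluster on chromosome 12, showed a similar set of levels. It read 81.8, 72.8, 94.1 and 76.9 with TNC and TNF, 161.8, 96.8, 96 and 138.3 with TNC, 91.5, 75.9 and 88.3 with TNF, and 2.54, 13.7 and 31.8 with neither factor. Arrays with any factor lay above the array median and those with neither lay below it, so the size of the rise rests on dim values. The rise was 3.04 with TNF alone (SE 0.67, adjusted p = 0.00399) and 3.54 with TNC alone (SE 0.62, adjusted p = 0.00123), and the TNF effect differed with TNC by -3.61 (SE 0.88, adjusted p = 0.0149). After 32 was added to every value these became 1.33, 1.72 and -1.76. The Serpina3, Serpina1, Serpinb6 and Serpinb9 groups are families of close paralogs in the mouse, and signal of one member on the probe set of another was not tested.

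The stretches around the gene starts of Serpina3n, Serpina3i and the clade B gene Serpinb2, the 3 called serpins with the largest fitted rises on TNF alone, are shown for what they share. That order depends on dim values: after 32 was added the rises were 4.28, 1.33 and 1.78, and Serping1, which has no entry in the promoter table, stood at 2.18. They come from RefSeq (build GRCm38.p6), run from 250 bases before to 50 after the start, and lie on the plus strand at chr12:104406458-104406757 (Serpina3n), chr12:104262872-104263171 (Serpina3i) and chr1:107511173-107511472 (Serpinb2, the first of 2 listed starts). Capitals mark matches on either strand to the NF-kB pattern GGGNNNNNCC or the STAT pattern TTCNNNGAA.
Serpina3n: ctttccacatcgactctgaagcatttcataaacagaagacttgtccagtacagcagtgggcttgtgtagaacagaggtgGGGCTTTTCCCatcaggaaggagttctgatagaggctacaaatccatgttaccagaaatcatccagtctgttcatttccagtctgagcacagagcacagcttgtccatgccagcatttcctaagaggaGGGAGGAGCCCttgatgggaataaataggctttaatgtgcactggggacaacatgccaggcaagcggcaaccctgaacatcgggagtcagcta
Serpina3i: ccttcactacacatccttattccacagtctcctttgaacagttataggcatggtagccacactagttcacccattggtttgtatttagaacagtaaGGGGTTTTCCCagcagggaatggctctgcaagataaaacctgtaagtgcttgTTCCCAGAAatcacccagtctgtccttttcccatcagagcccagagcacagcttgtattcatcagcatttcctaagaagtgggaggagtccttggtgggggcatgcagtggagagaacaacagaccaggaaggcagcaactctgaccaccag
Serpinb2: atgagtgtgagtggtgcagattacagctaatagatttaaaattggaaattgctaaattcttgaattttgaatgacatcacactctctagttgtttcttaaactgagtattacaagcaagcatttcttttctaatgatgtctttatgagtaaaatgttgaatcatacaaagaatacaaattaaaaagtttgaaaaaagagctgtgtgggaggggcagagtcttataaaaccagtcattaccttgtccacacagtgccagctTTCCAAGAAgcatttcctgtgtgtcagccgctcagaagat

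The first capital run of Serpina3n begins at position -171 from the start and that of Serpina3i at -154. Each of these holds the NF-kB pattern on both strands, overlapping. Serpina3n has a further run at -43, Serpina3i a STAT match at -102, and Serpinb2 a STAT match at 10 after the start and no NF-kB match in this window. Aligned end to end, the stretches of Serpina3n and Serpina3i shared 216 bases, or 72% of 300, against 58% for Serpina3n with Serpinb2. Of the 19 described serpins 16 matched the table, and Serpina10, Serpinb1a and Serping1 did not. The NF-kB pattern was present in 9 of the 16 and in 50.8% of 32851 mouse promoters of that length. The STAT pattern was present in 3 of the 16 (Serpina3i, Serpinb2 and Serpinb6a) and in 8.3% of all promoters. A gene counted if any of its listed starts matched, while the shares of all promoters count each start, so the 2 are not alike. Serpinb2 and Serpinb6a have 2 listed starts each, and Serpinb6a matched the STAT pattern only at its second. These matches are letters in a window and describe no binding.

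Serping1, the C1 inhibitor that shuts off the first complement proteases and the kallikrein of the contact system, moved much as Serpina3n did. It read 3312, 2796, 3116 and 2530.1 with TNC and TNF, 4182, 4010.5, 4144 and 4786 with TNC, 4610.1, 4575 and 4111 with TNF, and 892.8, 914.4 and 1066 with neither factor. Arrays with neither factor were lowest, those with both factors lay between, and those with TNC alone and TNF alone overlapped. Serping1 rose with TNF alone by 2.21 (SE 0.11, adjusted p = 4.19e-08) and with TNC alone by 2.16 (SE 0.10, adjusted p = 4.62e-08). On cells that had TNC, TNF lowered it (log2 -0.55, SE 0.10, adjusted p = 0.00178), and on cells that had TNF, TNC lowered it (log2 -0.60, SE 0.10, adjusted p = 0.00136). The TNF effect with TNC differed from that without by -2.76 (SE 0.15, adjusted p = 4.18e-07).

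**Figure D2:**
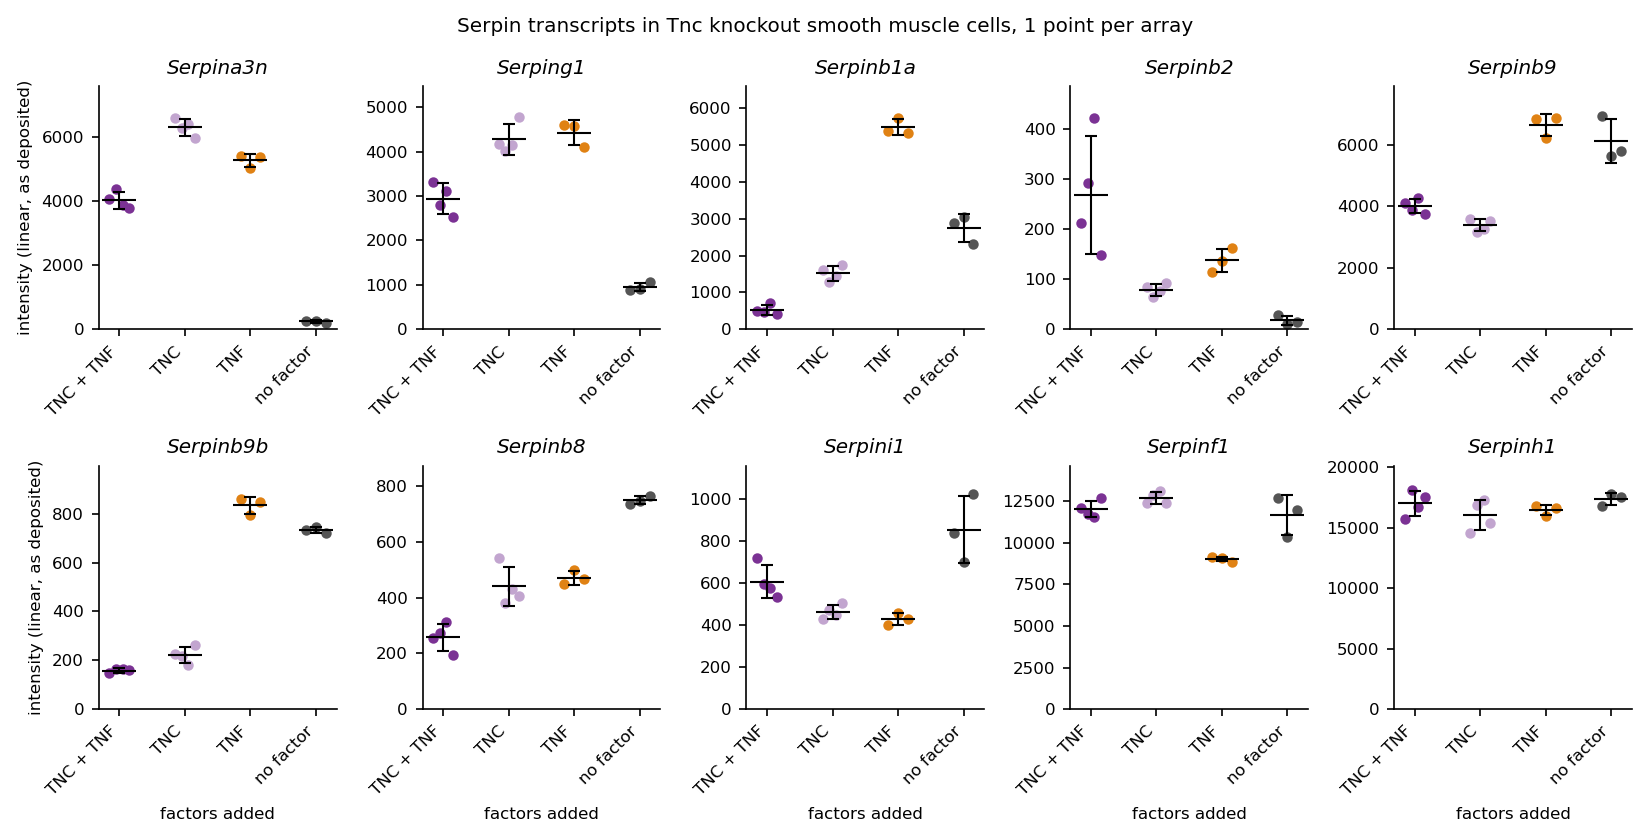
Intensity (linear, as deposited) of 10 serpin genes in Tnc knockout smooth muscle cells, 1 point per array, with group mean and SD (n = 4, 4, 3 and 3 from left to right); each panel has its own axis from 0. Serpina3n and Serping1 lie lowest with no factor, Serpinb1a is highest with TNF alone and lowest with both factors, and the Serpinh1 groups overlap.

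Among the clade B serpins, which act inside cells, Serpinb1a showed opposite TNF effects with and without TNC. Serpinb1a is the mouse counterpart of the leukocyte elastase inhibitor, which blocks neutrophil elastase, cathepsin G and proteinase 3. Its intensity was 485.9, 462.3, 707.0 and 424.9 with TNC and TNF, 1604, 1283, 1444 and 1737 with TNC, 5393, 5742 and 5334 with TNF, and 2892, 3040.0 and 2307 with neither factor. The 4 groups did not overlap, with TNF alone highest and both factors lowest. TNF raised it without TNC (log2 1.01, SE 0.18, adjusted p = 0.00102) and lowered it with TNC (log2 -1.56, SE 0.16, adjusted p = 3.25e-05), a difference of -2.57 (SE 0.24, adjusted p = 2.41e-05). TNC lowered it in cells without TNF (log2 -0.86, SE 0.17, adjusted p = 0.00254) and with TNF (log2 -3.43, SE 0.17, adjusted p = 1.99e-07). A second Serpinb1a probe set had group means in the same order, 80.2 with both factors, 248.3 with TNC, 1032 with TNF and 525.6 with neither.

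Serpinb2, the plasminogen activator inhibitor type 2 of macrophages and stressed cells, read 211.7, 291.7, 421.1 and 149.1 with TNC and TNF. It read 83.8, 63.4, 76.5 and 92.3 with TNC, 114.9, 137.1 and 161.4 with TNF, and 27.8, 10.6 and 14.5 with neither factor. The arrays with neither factor were lowest and below the array median, and those with both factors spread widely and overlapped the arrays with TNF alone. Serpinb2 rose with TNF in cells without TNC (log2 3.07, SE 0.39, adjusted p = 8.26e-05) and with TNC (log2 1.67, SE 0.34, adjusted p = 0.00431), and with TNC in cells without TNF (log2 2.27, SE 0.36, adjusted p = 0.000648). After 32 was added these became 1.78, 1.36 and 1.17, still called. TNC in cells with TNF gave 0.87 (SE 0.36, adjusted p = 0.101), and the difference of the TNF effects, -1.40, missed the threshold as well (SE 0.51, adjusted p = 0.0861). Single arrays decided both outcomes. The TNC effect passed without replicate 4 of the cells with both factors (log2 1.12, adjusted p = 0.037), and the difference passed without replicate 3 of that group (adjusted p = 0.0354) or replicate 1 of the cells with neither (adjusted p = 0.0263). The dim Serpinb1b, a paralog of Serpinb1a, rose with TNF alone (log2 1.70, SE 0.28, adjusted p = 0.00065) and with TNC alone (log2 1.66, SE 0.27, adjusted p = 0.000653), against levels of 11.9 to 29.7 with neither factor, below the array median. After 32 was added these became 0.85 and 0.83, still called. Its TNF effects differed by -1.30 (adjusted p = 0.0335; -0.58 after 32 was added), a call lost without any 1 of 8 arrays, in 2 of each group's arrays, with adjusted p of 0.0515 to 0.0802.

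Serpinb9, the granzyme B inhibitor that shields cytotoxic cells from their own granules, and its paralog Serpinb9b were lowered by TNC whether or not TNF was there. Serpinb9b read 146.1, 164.8, 162.2 and 158.7 with TNC and TNF, 224.8, 218.4, 178.8 and 260.8 with TNC, 862.6, 795.0 and 846.7 with TNF, and 735.8, 745.9 and 719.9 with neither factor. All 8 arrays with TNC lay far below all 6 without it. TNC lowered Serpinb9b without TNF (log2 -1.75, SE 0.10, adjusted p = 2.74e-07) and with TNF (log2 -2.40, SE 0.10, adjusted p = 7.49e-08), and the difference of -0.66 between these passed (SE 0.14, adjusted p = 0.00844). TNF lowered it in cells with TNC (log2 -0.47, SE 0.09, adjusted p = 0.0042). Serpinb9 averaged 4001 ± 235 with TNC and TNF and 3380.1 ± 201 with TNC (SD, n = 4 each), against 6633 ± 358 with TNF and 6120.3 ± 708 with neither factor (SD, n = 3 each). Its fall with TNC was -0.85 without TNF (SE 0.08, adjusted p = 1.67e-05) and -0.73 with TNF (SE 0.08, adjusted p = 8e-05), and again no array with TNC reached any array without it. TNF raised Serpinb9 by 0.24 in cells with TNC (adjusted p = 0.0416), a call lost in 13 of the alternatives, 9 of which left out 1 array (adjusted p of 0.0504 to 0.0993).

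Serpinb8, whose human counterpart inhibits furin, fell in each of the 4 simple contrasts. It read 254.0, 271.4, 310.6 and 193.3 with TNC and TNF, 540.2, 381.8, 430.3 and 406.7 with TNC, 447.3, 497.1 and 465.6 with TNF, and 735.3, 746.2 and 764.3 with neither factor. Arrays with neither factor were highest, those with both were lowest, and the arrays with 1 factor overlapped each other. Its changes were between -0.67 (TNF without TNC, adjusted p = 0.00637) and -0.89 (TNC with TNF, adjusted p = 0.00116), and the TNF effects differed by -0.11 (95% interval -0.57 to 0.35, adjusted p = 0.793). The TNF change of the bright Serpinb6b without TNC was -0.20 (adjusted p = 0.0533), and it passed without any 1 of the 4 arrays with TNC alone, which take no part in that contrast but in its error (adjusted p of 0.043 to 0.046). With all arrays it passed after quantile normalization (adjusted p = 0.0114), with a stricter filter (0.0368) and with another variance model (0.0178), and in no other alternative. Serpinb6b fell by 0.37 with TNF in cells with TNC (adjusted p = 0.0015) and by 0.49 with TNC in cells with TNF (adjusted p = 0.00035). Its fall of 0.32 with TNC alone (adjusted p = 0.00444) was lost when arrays were centred on the median (log2 -0.15, adjusted p = 0.146). Serpinb6a, an intracellular inhibitor of cathepsin G, changed once, by 0.23 with TNF in cells with TNC (adjusted p = 0.0085), and Serpinb6e in none.

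**Figure D3:**
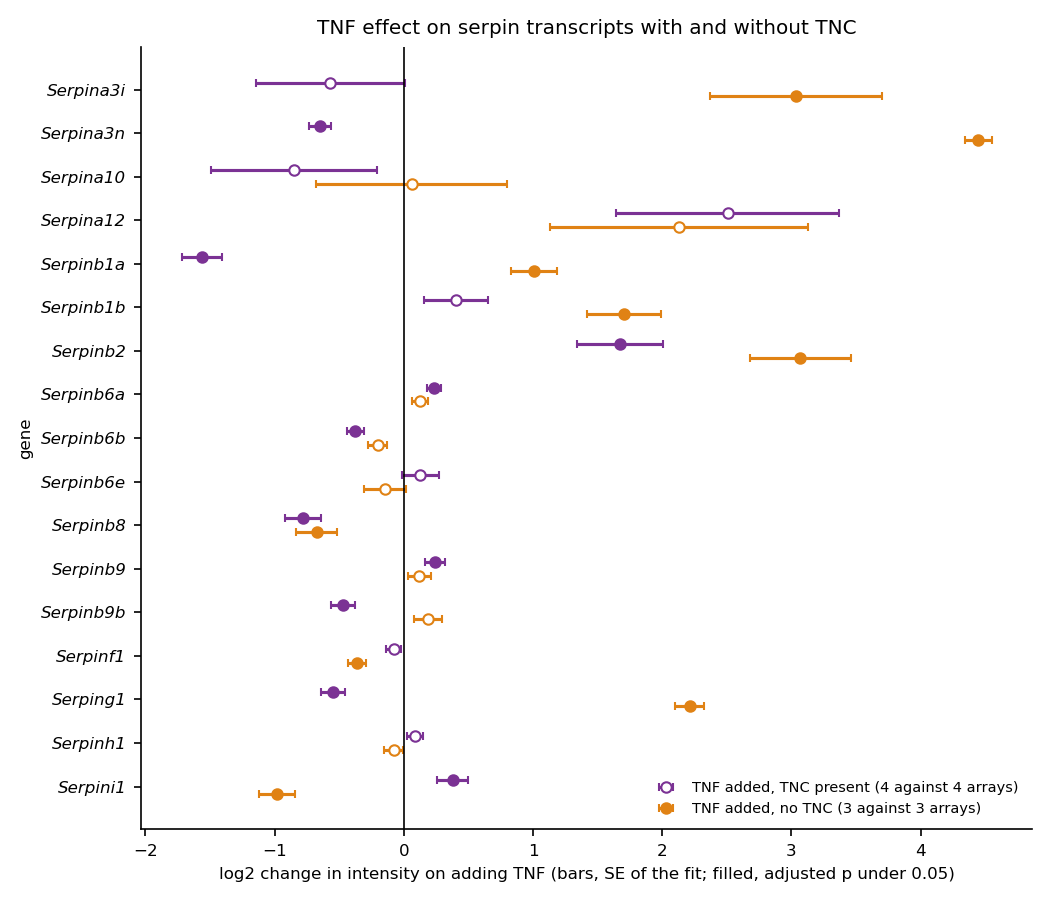
Change in intensity on adding TNF (log2, with the SE of the fit) for the 17 described serpins that were tested, with TNC present (violet, 4 arrays against 4) and without TNC (orange, 3 against 3); filled points have an adjusted p under 0.05. Serpina3n, Serping1 and Serpinb1a lie right of 0 without TNC and left of 0 with TNC, and Serpini1 the other way round.

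Of the remaining clades, Serpinf1 (pigment epithelium-derived factor, a secreted serpin without inhibitory action that limits vessel growth) read 12124, 11720.0, 11590.0 and 12688 with TNC and TNF and 9127, 9081 and 8880.1 with TNF alone. Those groups did not overlap, and the TNC effect under TNF was 0.41 (SE 0.07, adjusted p = 0.000817). TNF alone gave -0.36 (SE 0.07, adjusted p = 0.00176) against 12687, 10353 and 11961 with neither factor, a call lost when arrays were centred on the median (adjusted p = 0.0514). The difference of its TNF effects, 0.29 (adjusted p = 0.0552), passed without replicate 2 of the cells with neither (log2 0.37, adjusted p = 0.00734). With all arrays it passed after quantile normalization (adjusted p = 0.0264), with a stricter filter (0.0372) and with another variance model (0.0178), and in no other alternative. Serpinh1, the collagen chaperone, averaged 17015 ± 1038 with both factors and 16038 ± 1252 with TNC (SD, n = 4 each), against 16464 ± 404 with TNF and 17364 ± 526 with neither (SD, n = 3 each). It was called in no contrast, and its changes lay between -0.12 and 0.16 on the log2 scale, although after quantile normalization TNC without TNF passed (log2 -0.20, adjusted p = 0.0275).

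Serpini1 (neuroserpin, an inhibitor of tissue plasminogen activator in nerve cells) read 716.6, 592.8, 576.1 and 532.8 with TNC and TNF, 426.2, 471.4, 447.9 and 505.6 with TNC, 397.8, 457.7 and 429.1 with TNF, and 838.7, 700.3 and 1019.7 with neither factor. Arrays with 1 factor were lowest, and arrays with both lay between them and those with neither, overlapping those with neither in 1 array. Serpini1 fell with TNF alone (log2 -0.98, SE 0.14, adjusted p = 0.000191) and with TNC alone (log2 -0.87, SE 0.13, adjusted p = 0.000398). The TNF effect with TNC differed from that without by 1.36 (SE 0.18, adjusted p = 0.000376). The rises with TNF in cells with TNC (log2 0.38, adjusted p = 0.0423) and with TNC in cells with TNF (log2 0.49, adjusted p = 0.0151) were lost in 14 and 2 alternatives, the second without replicate 1 of the cells with TNF (adjusted p = 0.0606). A further Serpini1 probe set had means in the same order (184.5 with both, 135.3 with TNC, 108.2 with TNF, 331.3 with neither), and the third read 1.19 to 4.36. Among dim clade A genes, Serpina10 and Serpina12 were called in no contrast, although the Serpina12 change with TNF in cells with TNC (log2 2.51, adjusted p = 0.0613) passed without replicate 1 or 3 of the cells with neither factor (adjusted p = 0.0245 and 0.0229), with a stricter filter, with another variance model and after 32 was added (log2 1.37, adjusted p = 0.00616), as its change with TNF alone did without replicate 1 (log2 3.24, adjusted p = 0.0173). Among the 10 tested genes that stayed under the array median 1 was called and is named for that reason, Serpinb11, with TNC in cells with TNF. Its means there were 4.33 against 20, both far under the array median (log2 -2.57, adjusted p = 0.0348), and the difference was -0.51 after 32 was added. The call was lost with the replicate block (adjusted p = 0.075) and without any 1 of 5 arrays, replicate 1, 2 or 4 of the cells with both factors and replicate 1 or 2 of those with TNF (adjusted p of 0.0518 to 0.0774).

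Proteases and partners of these serpins were counted in the same fit. Of 11 tested complement and contact genes, TNF alone raised 5 and lowered 1, where 14.1% of all genes rose and 20% fell, and the list's median change was 1.24 against -0.06 for all genes. Those it raised included the C1 subunits that Serping1 blocks: C1ra averaged 5048 with TNF against 1719 with neither factor (log2 1.55, SE 0.06, adjusted p = 9.54e-09) and C1s1 averaged 7132 against 2626 (log2 1.44, SE 0.07, adjusted p = 4.12e-08). TNC alone raised 4 of the 11 and lowered 1 (median 0.61), where 16% of all genes rose and 15.5% fell, while TNC on top of TNF raised 2 and lowered 5 (median -0.76), where 16.1% rose and 11.8% fell. Another list joins 13 tested genes of plasminogen activation and of coagulation control (F3, Tfpi, Tfpi2, Thbd and F2r). TNF alone raised none of it and lowered 5, where 14.1% of all genes rose and 20% fell. The 5 were the urokinase gene Plau (50.75 with TNF against 114.2 with neither, adjusted p = 0.00639), Anxa2, Plgrkt, and the coagulation genes F3 and F2r. TNC alone raised 3 and lowered 6, where 16% of all genes rose and 15.5% fell, with S100a10, part of a cell surface plasminogen receptor, at 3291 against 5855 (adjusted p = 7.01e-05).

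Of 9 lysosomal cathepsins, which include the serine protease Ctsa and the aspartic protease Ctsd beside cysteine proteases, TNC alone raised 7, Ctsa and Ctsd among them, and lowered none (median 0.42 against -0.03 for all genes, with 16% of all genes called upward). TNF alone raised 4 (Ctsb, Ctsc, Ctss and Ctsz) and lowered 1, Ctsk, where 14.1% of all genes rose and 20% fell. Of 15 collagen genes and folding partners of Serpinh1, TNF with TNC raised 7 and lowered 1 (9.43% of all genes rose and 12.3% fell), and TNC with TNF raised 9 and lowered 2 (16.1% rose and 11.8% fell), with the prolyl hydroxylase P4ha2 at 6913 against 4060 in the second (log2 0.77, adjusted p = 6.63e-06). Single factors gave no such split. TNF alone raised 3 and lowered 5 (14.1% of all genes rose and 20% fell), and TNC alone raised 3 and lowered 3 (16% rose and 15.5% fell). Serpinh1 itself was called in none of these contrasts. Among 14 inhibitors outside the serpin family, TNF alone raised 3 and lowered 5, where 14.1% of all genes rose and 20% fell. TNC alone raised 4 and lowered 2, where 16% rose and 15.5% fell, with Timp1, a metalloprotease inhibitor, at 18848 against 4426 (log2 2.09, SE 0.07, adjusted p = 3.2e-09) and Slpi, a leukocyte protease inhibitor, at 643.5 against 76.25 (log2 3.07, SE 0.23, adjusted p = 2.38e-06). Of 5 tested proteases of neutrophils, lymphocytes and mast cells, only Prtn3 was called, and its levels of 12.34 to 60.54 lay near or under the array median.

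The aortic pools asked what CaAngII does in each segment and genotype. There was 1 array on each side, so these comparisons carry no test and no error. A gene was counted where it differed at least 2-fold and reached the array median in at least 1 of the pools compared. In the KO infrarenal aorta, where CaCl2 was applied, 5 of 12 measured serpins differed with CaAngII, 4 higher and 1 lower, where 17.1% of all measured genes differed, 11% higher and 6.12% lower. In the WT infrarenal aorta 6 of 13 differed, 4 higher and 2 lower, where 17.4% of all genes did, 10.5% higher and 6.91% lower. In the KO suprarenal aorta 4 of 14 differed, 2 higher and 2 lower, where 5.08% of all genes did, 3.58% higher and 1.5% lower. In the WT suprarenal aorta 3 of 13 differed, 1 higher and 2 lower, where 3.48% of all genes did, 1.17% higher and 2.31% lower. The serpin medians were 0.57, 0.53, 0.31 and -0.03 in that order, with all genes at 0.07, 0.00, -0.04 and 0.02.

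Serpina3n was 3.72-fold to 12.04-fold higher with CaAngII in all 4 pairs of pools. In the infrarenal aorta it read 6858 with CaAngII against 569.6 untreated in KO mice and 6852 against 574.9 in WT mice (log2 3.59 and 3.58). In the suprarenal aorta it read 3401 against 550.4 in KO mice and 2067 against 556.1 in WT mice (log2 2.63 and 1.89). The 4 untreated pools lay close together, the treated infrarenal pools were nearly equal between genotypes, and the treated KO suprarenal pool was above the WT one by 0.72 on the log2 scale.

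Serpinb2 was the serpin whose treated pools differed most by genotype. It read 773.3 in the treated KO suprarenal pool against 58.86 in the treated WT suprarenal pool (log2 3.72), while the untreated suprarenal pools read 35.3 in KO and 37.4 in WT mice. In the infrarenal aorta the treated pools were alike, at 387.2 in KO and 364.8 in WT mice, and the untreated pools read 1.25 and 24.4, far under the array median. The treated over untreated ratio in infrarenal KO tissue, 8.27 on the log2 scale, rests on that value near 0 and came to 3.66 after 32 was added to both. The same KO suprarenal pool carried high levels of the neutrophil and monocyte genes S100a8 (17385, against 475.3 in the WT pool) and S100a9 (15176, against 276.4), while the granule genes Elane and Mpo read 5.59 and 38.1. The summed level of 7 neutrophil markers was 930 to 32786 over the treated suprarenal pools and 7658 to 11904 over the treated infrarenal pools. In each treated suprarenal pool only 2 of the 7 reached the array median, S100a8 and S100a9, which made up most of the sum. Camp, Ngp and Ltf read 43.6, 67.1 and 71.1 in the KO one. Of 12 genes of plasminogen activation and coagulation control, 2 were at least 2-fold higher in the treated KO than WT suprarenal pool. These were Plaur (1722 against 286.0) and Tfpi2 (687.2 against 261.0). Of 10 inhibitors outside the serpin family 3 were higher, with Slpi at 2364 against 312.4, where 2.51% of all genes were. No gene of either list was 2-fold lower. The 10 macrophage markers summed to 33838 against 30057. The part of any of these in the Serpinb2 difference was not tested.

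**Figure D4:**
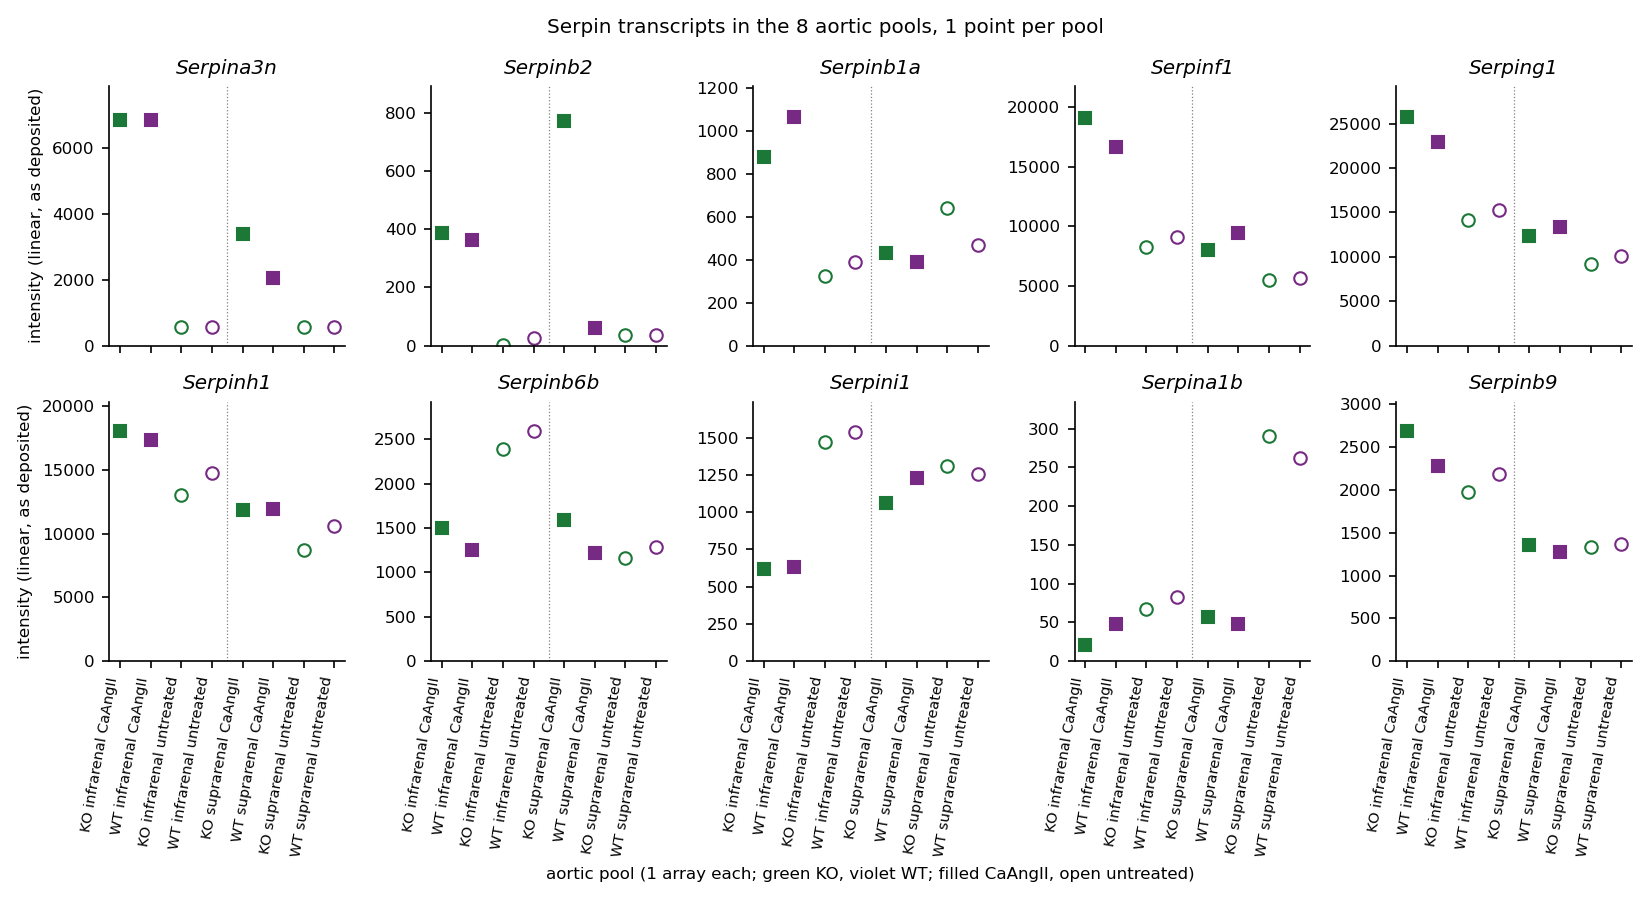
Intensity (linear, as deposited) of 10 serpin genes in the 8 aortic pools, 1 point per pool of 5 or 8 mice; green is KO, violet is WT, filled squares are CaAngII, open circles are untreated, and each panel has its own axis from 0. Serpina3n is higher in all treated pools, Serpinb2 is highest in the treated KO suprarenal pool, and Serpina1b is highest in the untreated suprarenal pools.

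Several serpins were higher in the treated infrarenal aorta of both genotypes. Serpinb1a read 878.6 with CaAngII against 325.3 untreated in KO mice and 1061 against 386.5 in WT mice (log2 1.43 and 1.46). Its second probe set read 198.5 against 119.4 in KO mice, under the 2-fold limit, and 286.3 against 118.6 in WT mice, over it. Serpinf1 read 19108 against 8288 in KO mice, a ratio of 1.21, and 16672 against 9132 in WT mice, at 0.87 under the 2-fold limit. A second Serpinf1 probe set passed in both genotypes, at 12335 against 4396 in KO and 10386 against 4707 in WT mice. Serping1 stayed under the 2-fold limit, with 25738 against 14119.9 in KO mice (log2 0.87) and 22937 against 15254 in WT mice (log2 0.59). Serpinh1 read 18068 against 13083 in KO mice and 17391 against 14742 in WT mice, ratios of 0.47 and 0.24. A second Serpinh1 probe set rose more in both genotypes, though still under the 2-fold limit. It read 17220 against 10296 in KO mice and 16529 against 10095 in WT mice. Beside these, the summed level of 10 macrophage markers was 66310 to 69181 in the treated infrarenal pools against 20239 to 23789 in the untreated ones. The 7 fibroblast and adventitia markers, all at or above the array median in every pool, summed to 92226 to 107609 against 72112 to 74273. The part of either was not tested.

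Serpini1 was lower in the treated infrarenal aorta, at 617.2 against 1473 in KO mice and 634.8 against 1538 in WT mice (log2 -1.25 and -1.28), and close to untreated in the suprarenal aorta (log2 -0.30 in KO and -0.03 in WT mice). Serpinb6b was lower there too, at 1504 against 2387 in KO mice (log2 -0.67, under the 2-fold limit) and 1251 against 2588 in WT mice (log2 -1.05). The 10 smooth muscle markers summed to 71648 to 81745 in these treated pools against 131012 to 131500 untreated, and the 5 sympathetic neuron markers to 3821 to 3829 against 6492 to 7370; the part of either was not tested. Serpini2, first described in human pancreas, reached 296.3 in the treated WT infrarenal pool, while the other 7 pools read 6.38 to 59.5, so the call rests on a single array.

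The dim clade A genes Serpina1b and Serpina10 were highest in the untreated suprarenal aorta. Serpina1b, a mouse alpha-1-antitrypsin made mainly by liver, read 57.2 with CaAngII against 290.9 untreated in KO mice and 47.9 against 262.2 in WT mice (log2 -2.35 and -2.45). A second probe set read 34.4 against 285.1 and 61.7 against 252.8. In the untreated infrarenal aorta it read 72.4 in KO mice and 133.0 in WT mice, the latter above the array median of 120.7. Serpina10, the protein Z-dependent inhibitor of factor Xa, read 49.6 against 181.0 in KO mice and 56.4 against 196.0 in WT mice (log2 -1.87 and -1.80). The infrarenal pools read 20.4 to 82.6 for Serpina1b on its main probe set and 23.6 to 96.3 for Serpina10, with or without treatment. Of 8 liver markers 2 reached the array median in each suprarenal pool, Cyp2e1 (17249 to 20984 over the 4 pools) and Apoc3 (142.9 to 198.2), while Alb read 31.1 to 55.5. The list summed to 17698 to 19332 in the treated suprarenal pools against 17730.3 to 21335 in the untreated ones. The 6 T and B cell markers summed to 484.5 to 626.2 in the treated suprarenal pools against 3830 to 5138 in the untreated ones, a shift in the same direction whose part was not tested.

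Few serpins differed between KO and WT pools. In untreated tissue, 0 of 11 measured serpins differed 2-fold between KO and WT infrarenal pools, where 1.71% of all genes differed, and 0 of 13 between suprarenal pools, where 1.77% differed. With CaAngII 1 of 13 differed in the infrarenal aorta, which was Serpini2 at 59.5 in KO against 296.3 in WT mice (1.15% of all genes differed and 0.593% were lower), and 1 of 12 in the suprarenal aorta, which was Serpinb2 (2.82% of all genes differed and 2.51% were higher). The serpin medians of KO over WT lay between -0.12 and 0.11 on the log2 scale.

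Between segments, 3 of 13 serpins differed in untreated KO mice, 1 higher and 2 lower in the infrarenal aorta, where 12.4% of all genes differed, 3.04% higher and 9.38% lower. In untreated WT mice 4 of 13 differed, 2 higher and 2 lower, where 9.16% of all genes differed, 1.93% higher and 7.23% lower. Serpinb6b was higher in the infrarenal aorta, at 2387 against 1165 suprarenal in KO mice and 2588 against 1283 in WT mice (log2 1.03 and 1.01), and Serpina1b and Serpina10 were lower there. Serpinb8 was the fourth, in WT mice, at 293.5 against 144.7. Its second probe set read 180.4 against 119.8 there, under the 2-fold limit. Sympathetic neuron markers summed to 6492 to 7370 in untreated infrarenal pools against 35382 to 47057 in suprarenal ones. T and B cell markers summed to 843.3 to 847.7 against 3830 to 5138, and endothelial markers to 17386 to 18789 against 7698 to 9358. The part of these in the segment differences was not tested. Under CaAngII 4 of 12 differed in KO mice (15.7% of all genes differed and 6.7% were higher) and 4 of 13 in WT mice (20.4% differed and 9.44% were higher), all of them higher in the infrarenal aorta. Serpina3n and Serpinb1a were among them in both genotypes, with ratios of 1.01 and 1.02 in KO mice and 1.73 and 1.45 in WT mice, while Serpinf1 (1.26) and Serping1 (1.06) passed in KO mice and Serpinb2 and Serpini2 in WT mice. The second Serpinb1a probe set read 198.5 against 157.2 in KO mice, under the 2-fold limit, and 286.3 against 113.9 in WT mice, over it. A second Serpinf1 probe set was over the limit in WT mice too, at 10386 against 4951.

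The partner lists in the infrarenal aorta were counted by the same 2-fold rule, by which 11% of all measured genes were higher and 6.12% lower in KO mice and 10.5% higher and 6.91% lower in WT mice. Of 10 measured complement and contact genes, 9 were higher with CaAngII in KO and in WT mice and none lower, with medians of 1.90 and 1.85. Kng1, the kininogen gene, read 1390 against 112.1 in KO mice and 1852 against 54.84 in WT mice. Of 9 lysosomal cathepsins 4 were higher in KO and 3 in WT mice, with Ctss at 17706 against 2261 in KO and 18221 against 2529 in WT mice. Of 13 genes of plasminogen activation and coagulation control 5 were higher in KO mice (Plat, Plaur, Vtn, Lrp1 and Tfpi2). In WT mice 4 were higher (Plaur, Vtn, Tfpi and Tfpi2) and 1 lower, the coagulation initiator F3. Plaur, the urokinase receptor, read 903.6 with CaAngII against 380.2 untreated in KO mice and 897.1 against 351.1 in WT mice. Of 15 collagen genes and partners 3 were higher in each genotype, with Col1a1 at 15879.6 against 4958 in KO and 15626 against 5278 in WT mice. Of the inhibitors outside the serpin family, 5 of 13 were higher and 3 lower in KO mice, and 4 of 11 were higher and 2 lower in WT mice. Among them Slpi read 3804 against 147.3 in KO mice and 2480 against 187.6 in WT mice. Timp4 went the other way, at 668.4 against 3139 in KO mice and 731.4 against 3361 in WT mice.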

How the data were processed

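The authors deposited 1 linear intensity for each of 45101 probe sets on 22 arrays; per the submitters' processing notes they used Affymetrix Expression Console. The version and algorithm were not given in the sources used here. After the outer probe sets were trimmed to the middle 96%, every array averaged 500.0. Probe sets were named from the platform annotation: 34945 had 1 gene symbol, 932 several and 9160 none, and 64 controls were left out. The probe set with the highest mean stood for a gene. Intensities were taken as log2 without a pseudocount. Genes at or above the 30th percentile in at least 3 cell arrays (15636) were fitted in limma 3.58.1 (R 4.3.3) with 1 mean per group and 10 residual degrees of freedom, and adjusted p-values are Benjamini-Hochberg over these. Aortic pools, 1 array each, were compared as log2 ratios among genes at or above the array median in at least 1 pool. The number of arrays limits the precision.

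Serpin genes and partner lists were chosen with earlier results of these data known. Members at or above the array median in at least 1 group are given with values, as are Tnc and up to 4 genes of a list with the largest called change; further members of mixed lists were named after their values were seen. In simulated data with 200 of 15636 genes changed, 62 to 71% were recovered at a log2 change of 1 and 71 to 79% at 2, and 3.33 to 6.94% of calls were false. TNF was given for 24 h by the design text; cell labels count up from 23 to 36 h, 1 per array, and were not used. Titles of the cells with TNC alone read "TNC or TNF"; their treatment label was followed. Same-numbered arrays correlated at -0.01 to 0.06 over 19 pairs after group means were removed, so numbers were not taken to pair arrays. The arrays' scan dates were not used here. Alternatives were other filters, quantile normalization, centring, log2(value + 32), the mean over probe sets, another variance model, a replicate block and leaving out each cell array.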

Additional observations from a re-analysis of the deposited data

Results flagged for a closer look

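In the cells, 7 serpins had a TNF effect that differed with TNC in limma's interaction test. The difference, with minus without TNC on the log2 scale, was -5.10 for Serpina3n, -3.61 for Serpina3i, -2.76 for Serping1, -2.57 for Serpinb1a, -1.30 for Serpinb1b, -0.66 for Serpinb9b and 1.36 for Serpini1. Of the 38 groups of 4 arrays tested for a stray array, 1 had one: Serpina10 read 3.79 in replicate 1 of the cells with TNC and TNF, while the other 3 arrays read 33.1 to 39.7. Chance gives about 1 such group in 20.

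In the aorta, 3 serpins had CaAngII ratios of opposite sign in the genotypes, between single arrays and with no test. Suprarenal Serpinb6b had a CaAngII log2 ratio of 0.45 in KO and -0.07 in WT mice, a difference of 0.52, and suprarenal Serpinb9 had 0.03 and -0.10, a difference of 0.13. Infrarenal Serpinb8 differed by 0.31, with a ratio of 0.31 in KO mice and one of -0.00 in WT mice, where treated and untreated pools read alike (293.4 and 293.5). A second Serpinb8 probe set did not repeat this. It was higher with CaAngII in both genotypes, at 257.0 against 224.1 in KO and 274.4 against 180.4 in WT mice.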

How the results depend on the processing

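The counts of called serpins in the cells moved little. Leaving out 1 array gave 9 to 10 for TNF without TNC, 8 to 10 for TNF with TNC, 11 to 12 for TNC without TNF, 8 to 10 for TNC with TNF and 6 to 8 for the interaction. With the replicate number as a block, which the pairing check did not bear out, the counts were 9, 9, 11, 9 and 7, and the calls of Serpini1 for TNF with TNC (adjusted p = 0.0922) and of Serpinb11 for TNC with TNF (adjusted p = 0.075) were lost. Centring each array on its median shifted the median of all genes for TNC without TNF to 0.14, against -0.03 without centring. Of all genes called, 3977 rose and 1238 fell there after centring, against 2498 and 2428 without. For TNC with TNF 3009 rose and 1043 fell, against 2522 and 1851. For TNF with TNC 1364 rose and 1197 fell, against 1474 and 1928, for TNF without TNC 2610 rose and 1932 fell, against 2200 and 3135, and for the interaction 777 rose and 1229 fell, against 1506 and 1392. The serpin split for TNC without TNF became 6 up and 5 down. With TNF, the Serpini1 change on TNC turned to -0.21 (adjusted p = 0.828) in the mean over its probe sets, 1 of which read 1.19 to 4.36 in cells. The other Serpini1 calls were lost there as well (adjusted p of 0.3 to 0.851). The Serpinb2 change on TNC with TNF passed after 32 was added (adjusted p = 0.0366), and the difference of its TNF effects passed after quantile normalization (adjusted p = 0.0488) and in the other variance model (adjusted p = 0.0422).

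The aortic counts depend on the filter. Without it, serpins at least 2-fold apart numbered 17 for CaAngII in KO infrarenal, 18 in WT infrarenal, 16 in KO suprarenal and 12 in WT suprarenal tissue. Between KO and WT they numbered 13 untreated and 11 treated in infrarenal tissue, and 9 untreated and 6 treated in suprarenal tissue. Between segments they numbered 13 in untreated KO, 14 in untreated WT, 14 in treated KO and 14 in treated WT mice. At the 75th percentile the counts were 2 for CaAngII in KO and 1 in WT suprarenal tissue, 0 for treated KO against WT infrarenal tissue, and 1, 1 and 2 between segments in untreated KO, untreated WT and treated WT mice. Adding 32 gave 2 between segments in untreated WT mice, and the mean over probe sets gave 1 between untreated KO and WT infrarenal pools.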
